A study of Homo sapiens with 8 samples.

Results

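Translation initiation factors (eIFs) and elongation factors (eEFs) were followed at the RNA level in C4-2B, a castration-resistant subline of LNCaP prostate cancer cells. The members were the rows of the deposited expression table whose symbol begins with EIF or EEF followed by a digit. Of 71 such rows, 2 pseudogenes, 4 antisense genes and the Y-linked EIF1AY were dropped, which left 64 members among 26443 rows with values. Of the 64, 58 had a mean of at least 1 FPKM (fragments per kilobase of gene, relative to library size) over all libraries and were tested, beside 11874 tested genes in all. Cells received ENZ at 10 uM, EPZ6438 (EPZ) at 1 uM, a combination of the 2 agents for which the labels give no separate doses (Combination), or DMSO, each for 7 days. The abbreviation ENZ usually stands for enzalutamide, an antiandrogen drug. EPZ6438, or tazemetostat, blocks EZH2, a methyltransferase that marks histones for gene silencing. All cells were of the same line and were kept in medium with serum, and each of the 4 groups had 2 RNA-seq libraries. Separate cultures for the libraries of a group are not stated in the labels. The p-values therefore rest on the spread between these libraries alone, which may be technical.

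Translation begins when eIF2 brings the initiator tRNA to the small ribosomal subunit, where eIF1, eIF1A and eIF3 hold a scanning-ready complex. The eIF4 factors recruit this complex to the mRNA cap, and the 4E-binding proteins block that step unless the kinase mTORC1 phosphorylates them. After subunit joining, eEF1 delivers each aminoacyl-tRNA, eEF2 moves the ribosome along, and eIF5A eases slow peptide bonds. Prostate cancer cells are known to depend on the cap-binding step, which receives input from mTORC1 and from MNK kinases. Other kinases phosphorylate eIF2.

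Many mRNAs of the translation machinery begin with a C followed by an unbroken run of pyrimidines, the terminal oligopyrimidine tract through which mTORC1 and LARP1 control their translation. RefSeq promoter sequences (GRCh38.p14) were at hand for 52 of the 64 members. Those of 9 members are shown to compare starts with and without such a run. EEF1B2, EIF3M, EIF3D, EEF2 and EEF1A1 were lower with Combination and have it, EIF5A and EIF3B were lower and do not, as held for most lower members, and EIF4A2 and EIF1B were higher, EIF4A2 with the run and EIF1B without. Each runs from 60 bases before the annotated start to 30 bases from it, on the strand of the gene, and capitals mark the C at the start with the pyrimidines that follow it. Where a gene had more than 1 annotated start (2 in EEF1B2, 6 in EIF5A), the start with the longest run was chosen for display.
EEF1B2, chr2:206159835-206159924, plus strand: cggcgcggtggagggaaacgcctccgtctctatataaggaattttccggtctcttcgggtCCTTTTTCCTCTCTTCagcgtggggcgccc
EIF3M, chr11:32583771-32583860, plus strand: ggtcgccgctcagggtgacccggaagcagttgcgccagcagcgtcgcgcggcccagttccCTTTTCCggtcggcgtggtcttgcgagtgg
EIF3D, chr22:36529137-36529226, minus strand: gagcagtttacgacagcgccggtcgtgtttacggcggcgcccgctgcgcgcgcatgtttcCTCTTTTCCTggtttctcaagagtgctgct
EEF2, chr19:3985434-3985523, minus strand: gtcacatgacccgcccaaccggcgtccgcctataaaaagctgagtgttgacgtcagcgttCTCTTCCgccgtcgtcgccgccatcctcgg
EEF1A1, chr6:73521003-73521092, minus strand: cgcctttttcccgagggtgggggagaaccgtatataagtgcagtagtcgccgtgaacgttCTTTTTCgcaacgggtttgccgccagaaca
EIF5A, chr17:7306939-7307028, plus strand: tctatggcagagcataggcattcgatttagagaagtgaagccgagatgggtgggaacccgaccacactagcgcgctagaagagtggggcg
EIF3B, chr7:2354767-2354856, plus strand: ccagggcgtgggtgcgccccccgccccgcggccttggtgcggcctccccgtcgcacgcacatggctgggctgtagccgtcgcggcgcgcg
EIF4A2, chr3:186783517-186783606, plus strand: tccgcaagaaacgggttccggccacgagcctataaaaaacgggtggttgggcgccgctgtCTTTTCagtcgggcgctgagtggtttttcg
EIF1B, chr3:40309647-40309736, plus strand: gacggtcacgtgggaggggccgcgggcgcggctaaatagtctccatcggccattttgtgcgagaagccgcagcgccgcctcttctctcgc
The run is 16 bases long in EEF1B2, 10 in EIF3D, 7 in EIF3M, EEF2 and EEF1A1, and 6 in EIF4A2. The starts shown for EIF5A, EIF3B and EIF1B have no such run, and the EIF1B window holds the letters cacgtg.

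The cell line label was checked against markers. The luminal prostate marker KLK3 had a mean of at least 1 FPKM. None of the basal, immune, endothelial or neuroendocrine markers reached that level. Of 5 fibroblast markers only COL1A1 did, and COL1A2 was listed at 0 in all libraries. The summed FPKM of the fibroblast list was 3.58 and 4.62 in ENZ libraries, 3.002 and 3.04 in EPZ libraries and 10.7 and 10.9 in Combination libraries, against 2.40 and 2.59 in DMSO libraries, and its part in the results was not tested. In bulk samples fewer cells of a type and less RNA per cell cannot be told apart, and FPKM, being relative to library size, measure neither. Depth, read from the spacing of low FPKM values, was 15600000 to 24700000 fragments per library. The FPKM of all rows summed to 283211 and 276531 with ENZ, 288954 and 296532 with EPZ and 218646 and 224223 with Combination, against 318599 and 314611 with DMSO.

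Translation factors were lower as a group in all 3 treated groups, and most of all with Combination. The 64 members together held 2.09% and 2.09% of the summed FPKM in ENZ libraries, 2.12% and 2.11% in EPZ libraries and 1.68% and 1.69% in Combination libraries, against 2.29% and 2.27% in DMSO libraries. No treated library reached the share of a DMSO library, and both Combination libraries lay under all others. Their summed FPKM was 0.809 of the DMSO mean with ENZ, 0.855 with EPZ and 0.515 with Combination, where the sum of all rows was 0.884, 0.925 and 0.699 of it. Of the 58 tested members, 50 had their lowest group mean with Combination and 45 their highest with DMSO. The shares of all tested genes with these patterns are not given here, so the counts are not read as particular to the members.

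**Figure D1:**
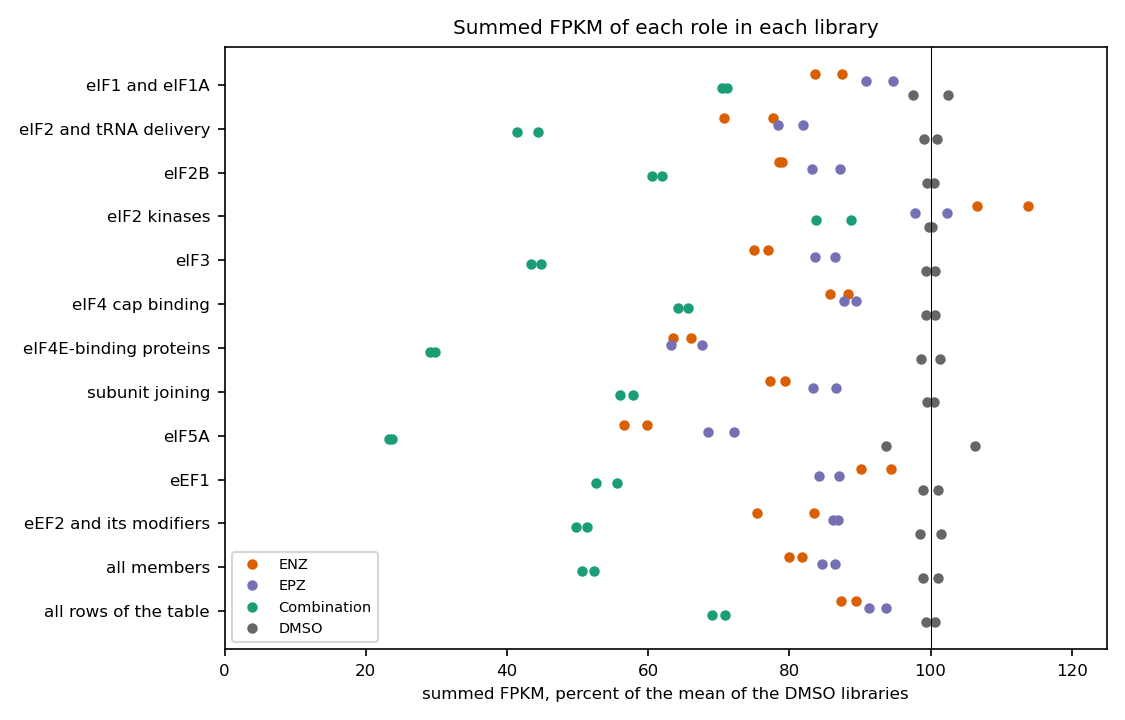
Summed FPKM of each role in each library, in percent of the mean of the DMSO libraries (points, 2 libraries a group; the line marks 100). Combination points lie left of all others in every role, down to a ratio of 0.236 for eIF5A, and the eIF2 kinases with ENZ are the one role right of the line in both libraries of a treated group.

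ENZ against DMSO asks what the antiandrogen alone changed. On the log2(FPKM + 1) scale, tested with limma and Benjamini-Hochberg adjustment over all tested genes, 42 of 58 members were lower and 6 higher (median change -0.29). Over all tested genes 28.8% were lower and 27.9% higher (56.7% in either direction), with a median of 0.0049. Without the second DMSO library 3 members were higher. EPZ against DMSO asks the same of the EZH2 inhibitor: 39 members were lower and 3 higher (median -0.24), beside 32.4% lower, 23.4% higher (55.8% in either direction) and a median of -0.046 over all tested genes. With Combination against DMSO, 49 members were lower and 5 higher (median -0.91), beside 47.4% lower, 33.3% higher (80.8% in either direction) and a median of -0.15. Without the second Combination library 3 were higher. These 3 comparisons share their DMSO libraries. Members at least 2-fold lower on this scale numbered 0 with ENZ, 0 with EPZ and 23 with Combination, beside 16% of all tested genes with Combination.

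Of the 58 tested members 27 had a mean of at least 50 FPKM, and genes at that level were more often lower than tested genes as a whole. Among 1145 tested genes at or above it, 62.1% were lower with ENZ, 50.7% with EPZ and 77.9% with Combination, with medians of -0.27, -0.17 and -0.86. The 27 members at that level had medians of -0.32, -0.22 and -1.02, and 23, 18 and 26 of them were lower. The 31 members under 50 FPKM had medians of -0.27, -0.27 and -0.63, where the 10729 tested genes under it had 0.032, -0.034 and -0.087. The part of expression level in the members' change was not tested. When every library was scaled to the same total FPKM, the median of all tested genes with Combination moved by 0.44, to 0.29. The members' median was then -0.40, with 39 lower and 10 higher, and all 39 were among the 49.

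A smaller part of the lower calls than of the higher ones was made under every scaling. Deposited values, median-of-ratios scaling, quantile normalization and equal totals all called 19 of the 42 members lower with ENZ, 20 of the 39 with EPZ and 36 of the 49 with Combination. The share of all tested genes called under every scaling is not given here. These counts, and those by role and for the interaction further on, are therefore not set against genes in general. The higher calls, 6 with ENZ, 3 with EPZ and 5 with Combination, were made under all of these scalings. Equal totals moved the members' changes upward in every treated group, where the summed FPKM was lower than with DMSO. Median-of-ratios scaling moved them upward with EPZ and with Combination. Such shifts can hardly remove a higher call, so the difference does not measure how firm the higher calls are. With Combination the lower calls not made under every scaling were those of EEF1A1, EEF1A2, EIF1, EIF1AD, EIF2AK1, EIF2AK4, EIF2B2, EIF2B5, EIF3F, EIF4E2, EIF4EBP2, EIF4G2 and EIF5. Of these, EIF3F, EIF4G2 and EIF2AK1 were called higher after quantile normalization, and EIF2AK1 also at equal totals. Changes given without a scaling are as deposited.

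**Figure D2:**
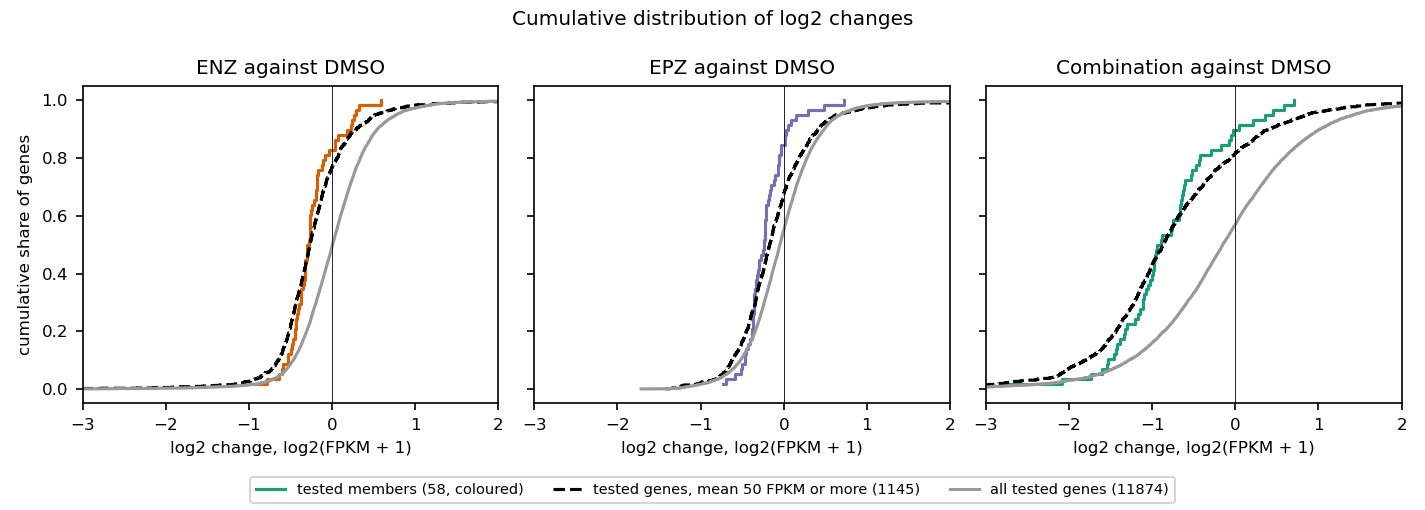
Cumulative share of genes (y axis) against log2 change on the log2(FPKM + 1) scale (x axis) for the 58 tested members (coloured), the 1145 tested genes averaging 50 FPKM or more (dashed) and all 11874 tested genes (grey). With Combination the members and the highly expressed genes have medians of -0.91 and -0.86, left of the -0.15 of all tested genes.

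Among the factors of the scanning complex, eIF1 and its paralogue EIF1B differed in direction as deposited. EIF1, which holds the small subunit open for scanning, stood at 187 and 193 FPKM with ENZ, 213 and 223 with EPZ and 146 and 146 with Combination, against 234 and 224 with DMSO. It fell by 0.27 with ENZ (SE 0.051, adjusted p = 0.00154) and by 0.64 with Combination (SE 0.051, adjusted p = 1.17e-06). With EPZ it changed by -0.070 (SE 0.051, adjusted p = 0.265). After quantile normalization both calls of EIF1 were lost (-0.020 with ENZ, adjusted p = 0.789, and -0.0039 with Combination, adjusted p = 0.951), and at equal totals the ENZ call was lost (-0.092, adjusted p = 0.103) and the Combination change was -0.13.
EIF1B, its close paralogue, stood at 25.2 and 28.0 FPKM with ENZ, 18.1 and 18.3 with EPZ and 35.2 and 33.4 with Combination, against 23.5 and 21.7 with DMSO. Both Combination libraries were above all others and both EPZ libraries under all others, with no overlap between groups. It rose by 0.22 with ENZ (SE 0.069, adjusted p = 0.0198) and by 0.58 with Combination (SE 0.069, adjusted p = 2.53e-05), and fell by 0.29 with EPZ (SE 0.069, adjusted p = 0.00539), a call lost after quantile normalization (-0.16) and at equal totals (-0.19). The ENZ call missed the threshold without the second ENZ library (0.15, adjusted p = 0.0885) and without the second DMSO library (0.17, adjusted p = 0.152). EIF1B was the only member called higher with Combination than with each single agent, by 0.36 against ENZ (adjusted p = 0.00107) and by 0.88 against EPZ (adjusted p = 2.01e-06), with limma. Its share of the summed EIF1 and EIF1B FPKM was 11.9% and 12.7% with ENZ, 7.85% and 7.59% with EPZ and 19.4% and 18.6% with Combination, against 9.14% and 8.83% with DMSO. An antisense gene named for it, EIF1B-AS1, was listed at 0.442 and 0.318 FPKM with Combination, against 0.0307 and 0.0233 with DMSO. No source used here says whether reads were counted by strand, so reads from exonic bases that a gene shares with its antisense partner cannot be told apart. In the GENCODE annotation 0.78% of the exonic bases of EIF1B lie in a gene on the other strand. EIF1AX, which works beside eIF1 on the scanning subunit, stood at 8.05 and 8.98 FPKM with ENZ, 8.71 and 9.06 with EPZ and 5.17 and 4.88 with Combination, against 12.1 and 11.7 with DMSO. EIF1AX also has an antisense gene in the table, but 0.0% of its annotated exonic bases lie in a gene on the other strand. It fell by 0.44 with ENZ, 0.38 with EPZ and 1.09 with Combination (SE 0.071 each). EIF1AX was called lower in the same 3 comparisons under each rescaling. EIF1AD, a relative of EIF1AX, changed by -0.12 with ENZ, -0.25 with EPZ and -0.30 with Combination as deposited, but by 0.036, -0.14 and 0.16 at equal totals, so its direction depends on the scaling.

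All 3 subunits of eIF2, the GTPase that carries the initiator tRNA, fell with Combination under every scaling, and as deposited also with ENZ and with EPZ. EIF2S3, the gamma subunit that binds GTP and tRNA, stood at 47.5 and 56.0 FPKM with ENZ, 52.2 and 56.5 with EPZ and 25.4 and 25.2 with Combination, against 72.7 and 68.1 with DMSO. All treated libraries were under both DMSO libraries and both Combination libraries under all others. The changes were -0.44 with ENZ (SE 0.080), -0.37 with EPZ (SE 0.080) and -1.44 with Combination (SE 0.080, adjusted p = 9.02e-08). Its ENZ and EPZ calls were lost after quantile normalization (-0.22, adjusted p = 0.0647, and -0.19, adjusted p = 0.0922).
EIF2S1, the alpha subunit that stress kinases phosphorylate, fell by 0.53 with ENZ (SE 0.077), by 0.36 with EPZ (SE 0.077) and by 1.31 with Combination (SE 0.077, adjusted p = 1.43e-07), the EPZ call being lost after quantile normalization (-0.18, adjusted p = 0.0900). EIF2S2, the beta subunit, fell by 0.27, 0.24 and 1.05 (SE 0.069 each). Its ENZ call missed the threshold without the second DMSO library (-0.25, adjusted p = 0.0550), and its EPZ call did so without any 1 of the EPZ or DMSO libraries (-0.25 to -0.22). Both were also lost after quantile normalization (-0.16 and -0.11) and at equal totals (-0.095 and -0.13). EIF2A and EIF2D, which can bring tRNA without eIF2, fell too, by 1.11 and 0.66 with Combination. Their EPZ calls were lost after quantile normalization (-0.11 and -0.090), at equal totals (-0.16 and -0.12) and without the first EPZ library (-0.25 and -0.20), that of EIF2A also without the second DMSO library (-0.23) and that of EIF2D without the first (-0.21).
All 5 subunits of eIF2B, the exchange factor that reloads eIF2 with GTP, were lower with ENZ and with Combination, and 3 with EPZ. EIF2B3 fell the furthest with Combination, to 6.17 and 5.56 FPKM against 16.7 and 17.2 with DMSO, a change of -1.39 (SE 0.072, adjusted p = 5.87e-08). The other 4 fell by 0.48 to 0.68 with Combination. Subunits lower under every scaling numbered 3 with ENZ, 2 with EPZ and 3 with Combination. With Combination EIF2B5 was not called after quantile normalization (-0.049) or at equal totals (0.021), nor EIF2B2 at equal totals (-0.12). With ENZ the calls of EIF2B1 (-0.11 and -0.10) and EIF2B5 (-0.068 and -0.023) were lost under both, and that of EIF2B5 also without the first ENZ library (-0.17) or the second DMSO library (-0.15). With EPZ that of EIF2B4 was lost under both (-0.064 and -0.11) and without the first EPZ library (-0.17) or the first DMSO library (-0.21).

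The 4 kinases that phosphorylate eIF2 had, as a role, a summed FPKM of 1.10 of the DMSO mean with ENZ, 1.00 with EPZ and 0.862 with Combination. EIF2AK3, or PERK, the kinase of endoplasmic reticulum stress, stood at 5.60 and 7.04 FPKM with ENZ, 9.56 and 11.5 with EPZ and 7.52 and 8.34 with Combination, against 5.61 and 6.28 with DMSO. Both EPZ libraries were above all others, Combination libraries were above DMSO libraries, and ENZ and DMSO overlapped. EIF2AK3 rose by 0.73 with EPZ (SE 0.11, adjusted p = 0.000534) and by 0.36 with Combination (SE 0.11, adjusted p = 0.0140), and changed by 0.072 with ENZ (SE 0.11, adjusted p = 0.614). The Combination call missed the threshold without the second Combination library (0.30, adjusted p = 0.0863) and without the first DMSO library (0.29, adjusted p = 0.0827).
EIF2AK1, or HRI, the kinase that senses haem, stood at 52.7 and 53.6 FPKM with ENZ, 44.1 and 44.6 with EPZ and 38.0 and 40.2 with Combination, against 44.2 and 43.9 with DMSO. It rose by 0.27 with ENZ (SE 0.053, adjusted p = 0.00207). With Combination it changed by -0.17 as deposited (SE 0.053, adjusted p = 0.0138), by 0.0056 with median-of-ratios scaling, by 0.42 after quantile normalization and by 0.34 at equal totals, so its direction there depends on the scaling. The Combination call also missed the threshold without the first Combination library (-0.13) and without either DMSO library (-0.16 and -0.17). EIF2AK2, or PKR, the kinase that senses double-stranded RNA, stood at 8.69 and 10.4 FPKM with ENZ, 7.05 and 7.74 with EPZ and 7.09 and 7.54 with Combination, against 7.55 and 7.62 with DMSO. It rose by 0.29 with ENZ (SE 0.087, adjusted p = 0.0167), a call that was lost without the second ENZ library (0.18) or without either DMSO library (0.29 and 0.30). EIF2AK4, or GCN2, the kinase of amino acid shortage, fell by 0.27 with ENZ, by 0.36 with EPZ and by 0.63 with Combination (SE 0.066 each), and its ENZ call was lost without the first DMSO library (-0.24, adjusted p = 0.0553). At equal totals its ENZ and Combination calls were lost (-0.097 and -0.14).

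The scaffold eIF3, which bridges the small subunit and the cap-bound factors, was lower in most of its subunits with Combination. As deposited 11 of the 12 tested subunits were lower with ENZ (median -0.41), 9 with EPZ (median -0.22) and 12 with Combination (median -1.19). Under every scaling 5 were lower with ENZ, 4 with EPZ and 11 with Combination, EIF3F being the exception with Combination. EIF3B, a core subunit, stood at 120.3 and 118 FPKM with ENZ, 133 and 137 with EPZ and 55.6 and 54.7 with Combination, against 192 and 181 with DMSO. The 4 groups did not overlap, with Combination lowest and DMSO highest. Its changes were -0.64 with ENZ (SE 0.052, adjusted p = 9.77e-06), -0.46 with EPZ (SE 0.052, adjusted p = 7.18e-05) and -1.74 with Combination (SE 0.052, adjusted p = 1.59e-09).
EIF3I, a partner of EIF3B in the complex, stood at 148 and 146 FPKM with ENZ, 191 and 196 with EPZ and 77.7 and 82.2 with Combination, against 222 and 221 with DMSO. It fell by 1.46 with Combination (SE 0.050, adjusted p = 3.76e-09), by 0.59 with ENZ (SE 0.050) and by 0.19 with EPZ (SE 0.050). The EPZ call was lost after quantile normalization (-0.096), at equal totals (-0.082) and without the first EPZ library (-0.17) or either DMSO library (-0.19 and -0.20). EIF3J, a loosely bound subunit, fell by 1.54 (SE 0.073) and EIF3M by 1.53 (SE 0.073) with Combination. EIF3A, EIF3D, EIF3E, EIF3G, EIF3H, EIF3K and EIF3L fell by 0.76 to 1.34 with Combination. The smallest fall with Combination was that of EIF3F, at 71.1 and 63.8 FPKM with ENZ, 67.0 and 72.8 with EPZ and 50.7 and 54.0 with Combination, against 71.1 and 71.6 with DMSO. Its change with Combination was -0.44 (SE 0.069, adjusted p = 0.000188), and its ENZ and EPZ libraries overlapped those of DMSO. After quantile normalization EIF3F was called higher with Combination (0.20, adjusted p = 0.00980) and at equal totals it was not called (0.068, adjusted p = 0.293), so its direction depends on the scaling. EIF3C and its near-identical copy EIF3CL were listed at 0 in every library and could not be followed.

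**Figure D3:**
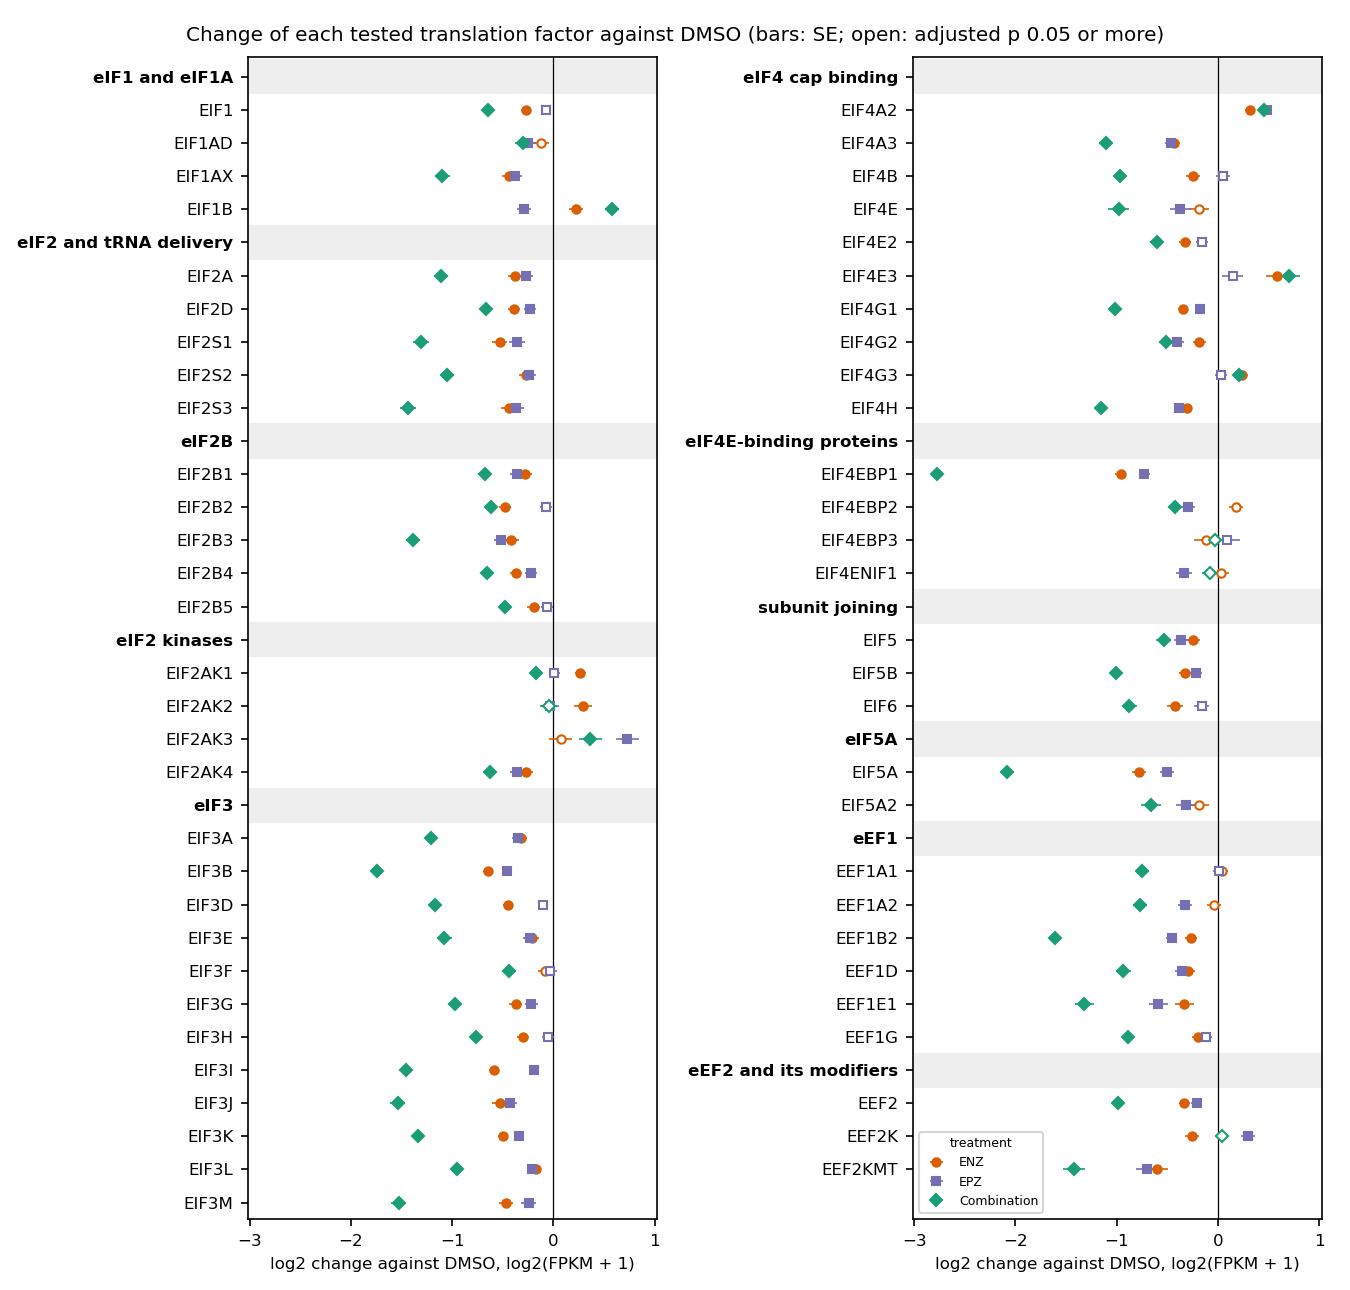
Change of each of the 58 tested members against DMSO on the log2(FPKM + 1) scale, by role, for ENZ, EPZ and Combination (2 libraries a group). Bars are SE and open symbols have an adjusted p of at least 0.05; 49 members were lower and 5 higher with Combination, and EIF4EBP1 lies furthest left at -2.78.

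Among the eIF4 members, some paralogues went in different directions. EIF4A2, an RNA helicase that unwinds mRNA leaders, stood at 123 and 123 FPKM with ENZ, 135 and 142 with EPZ and 137 and 134 with Combination, against 98.6 and 98.3 with DMSO. All 6 treated libraries were above both DMSO libraries. It was the only member called higher in all 3 comparisons with DMSO as deposited, by 0.32 with ENZ (SE 0.049, adjusted p = 0.000488), by 0.48 with EPZ (SE 0.049, adjusted p = 4.00e-05) and by 0.46 with Combination (SE 0.049, adjusted p = 1.29e-05).
Its paralogue EIF4A1, usually the abundant form, was listed at 0 in every library, and 48.6% of its annotated exonic bases lie in another gene on the same strand. EIF4A3, the helicase of the exon junction complex, fell to 35.1 and 34.6 FPKM with Combination, against 79.7 and 73.3 with DMSO, a change of -1.11 (SE 0.062). EIF4A2 thereby made up 79.6% and 79.5% of the summed FPKM of EIF4A2 and EIF4A3 with Combination, against 55.3% and 57.3% with DMSO. With EIF4A1 listed at 0 and EIF4A3 part of another complex, this share does not describe the helicases of the cap-binding complex.

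The scaffold EIF4G1, which joins the cap-binding protein to eIF4A and eIF3, stood at 267 and 253 FPKM with ENZ, 295 and 291 with EPZ and 162 and 163 with Combination, against 331 and 330.2 with DMSO. It fell by 0.35 with ENZ, by 0.17 with EPZ and by 1.02 with Combination (SE 0.048 each), with its EPZ call lost without the second EPZ library (-0.16) or either DMSO library (-0.17 and -0.17), after quantile normalization (-0.089) and at equal totals (-0.060). The ENZ call was lost after quantile normalization (-0.086, adjusted p = 0.128). EIF4G3, a paralogue with the same role, stood at 17.7 and 19.0 FPKM with ENZ, 16.3 and 15.3 with EPZ and 17.8 and 18.2 with Combination, against 15.6 and 15.3 with DMSO. It rose by 0.24 with ENZ (SE 0.062, adjusted p = 0.00961) and by 0.21 with Combination (SE 0.062, adjusted p = 0.0108). The ENZ call was lost without the second DMSO library (0.22, adjusted p = 0.0635), and the Combination call without the second Combination library (0.20, adjusted p = 0.0563) or the second DMSO library (0.19, adjusted p = 0.0674). EIF4G2, a relative that does not bind the cap protein, was lower with ENZ by 0.18, with EPZ by 0.40 and with Combination by 0.52 (SE 0.064 each) as deposited. After quantile normalization it stood at 0.11 with ENZ and 0.24 with Combination, so its direction depends on the scaling. Its ENZ call was lost without the first ENZ library (-0.097) or either DMSO library (-0.19 and -0.17).
The cap-binding proteins split in the same way. EIF4E, which binds the cap for translation, stood at 3.28 and 3.74 FPKM with ENZ, 2.79 and 3.15 with EPZ and 1.52 and 1.67 with Combination, against 4.54 and 3.74 with DMSO. It fell by 0.98 with Combination (SE 0.10, adjusted p = 9.01e-06) and by 0.37 with EPZ (SE 0.10). The EPZ call was lost without the first EPZ library (-0.31) or the first DMSO library (-0.26). EIF4E2, which mainly represses the mRNAs it binds, fell by 0.61 with Combination (SE 0.063), a call lost at equal totals (-0.12), and by 0.33 with ENZ (SE 0.063). EIF4E3, an atypical cap-binding relative, stood at 2.16 and 2.47 FPKM with ENZ, 1.25 and 1.66 with EPZ and 2.54 and 2.67 with Combination, against 1.23 and 1.19 with DMSO. All treated libraries were above both DMSO libraries, and EIF4E3 rose by 0.58 with ENZ (SE 0.10, adjusted p = 0.00110) and by 0.70 with Combination (SE 0.10, adjusted p = 0.000122). EIF4B and EIF4H, which stimulate the helicase, fell by 0.97 and 1.15 with Combination (SE 0.069 and 0.053).

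EIF4EBP1, the main repressor of EIF4E and an mTORC1 target, had the largest fall of any member with ENZ and with Combination on this log2 scale, and with EPZ except after quantile normalization, where EEF2KMT was at -0.69 and EIF4EBP1 at -0.54. It stood at 69.1 and 70.7 FPKM with ENZ, 79.4 and 85.2 with EPZ and 19.1 and 19.1 with Combination, against 134 and 139 with DMSO. The 4 groups did not overlap, and the Combination libraries were far under the rest. Its changes were -0.96 with ENZ (SE 0.055, adjusted p = 1.06e-06), -0.73 with EPZ (SE 0.055, adjusted p = 6.57e-06) and -2.78 with Combination (SE 0.055, adjusted p = 2.37e-10), the last 6.85-fold lower on this scale.
Its paralogue EIF4EBP2 was less abundant. It stood at 31.6 and 35.8 FPKM with ENZ, 23.7 and 24.01 with EPZ and 20.9 and 22.6 with Combination, against 29.2 and 29.9 with DMSO. EIF4EBP2 fell by 0.30 with EPZ (SE 0.071, adjusted p = 0.00568) and by 0.43 with Combination (SE 0.071, adjusted p = 0.000288), though at equal totals it stood at 0.070 with Combination. Both calls were lost after quantile normalization (-0.15 and -0.0092) and the EPZ call at equal totals (-0.19). With ENZ it changed by 0.18 (limma adjusted p = 0.0508), and by 0.17 with median-of-ratios scaling (adjusted p = 0.0557). It was called higher with ENZ after quantile normalization (0.31, adjusted p = 0.00754) and at equal totals (0.35, adjusted p = 0.00223). The ENZ change also passed with the replicate block (adjusted p = 0.0277) and was 0.27 without the first ENZ library. EIF4EBP3, at 3.59 to 5.06 FPKM in all libraries, was the only member called in none of the 6 comparisons as deposited. At equal totals it was called higher with Combination against DMSO (0.39) and against ENZ (0.37). In EIF4EBP3 73.4% of the exonic bases lie in a longer gene on the same strand. EIF4ENIF1, which carries EIF4E into the nucleus and to P-bodies, fell by 0.33 with EPZ (SE 0.077), a call lost without the first EPZ library (-0.25), and changed by 0.031 with ENZ and by -0.078 with Combination, where it was called higher at equal totals (0.38).

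**Figure D4:**
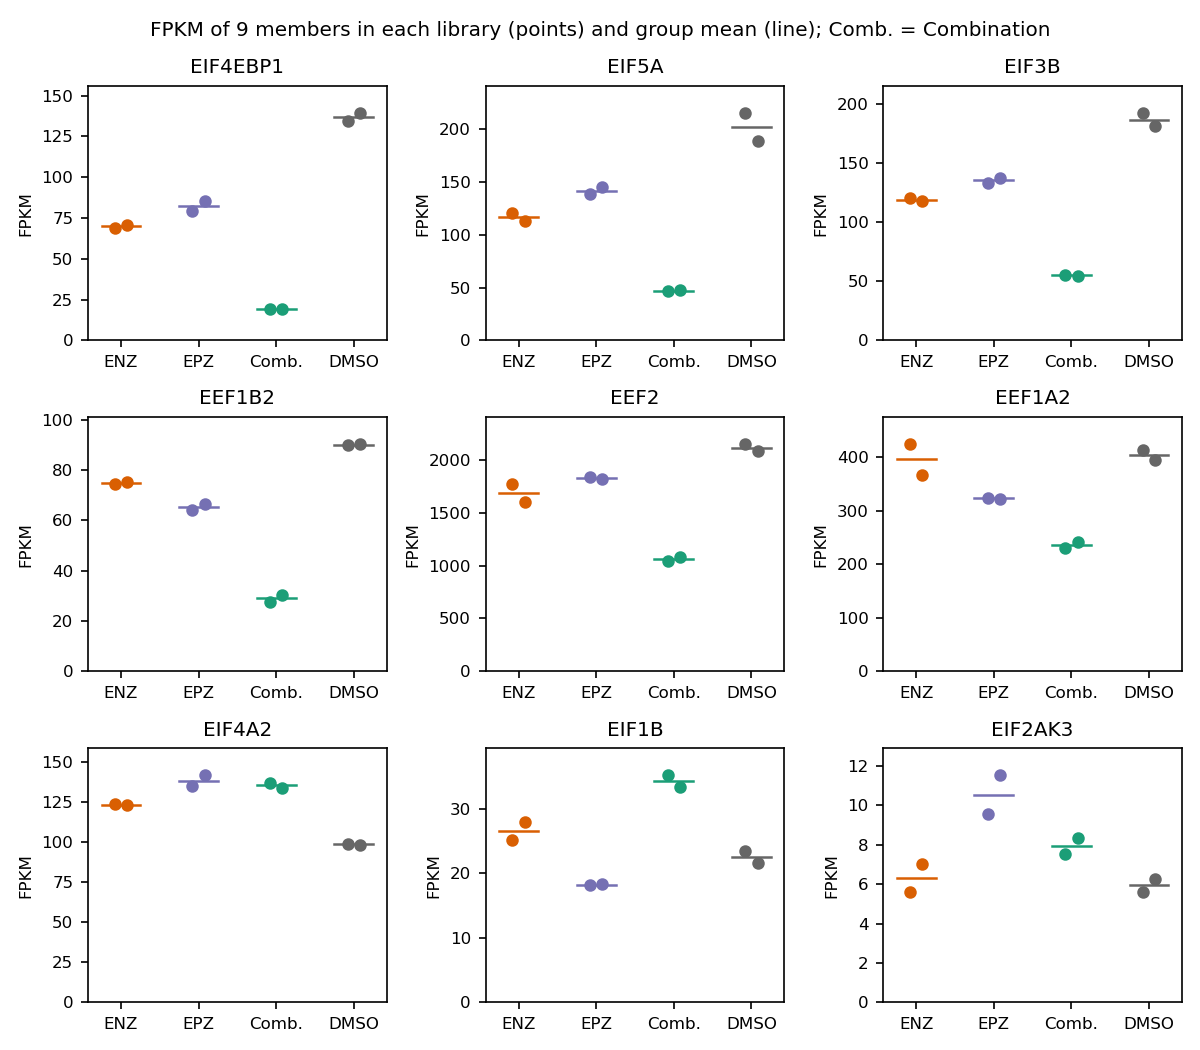
FPKM of 9 members in each library (points; 2 libraries a group, axes from 0) with the group mean (line). EIF4EBP1, EIF5A, EIF3B, EEF1B2 and EEF2 are lowest in the Combination libraries, EIF4A2 is above DMSO in all 6 treated libraries, EIF1B is highest with Combination and EIF2AK3 is highest with EPZ.

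The 3 factors of subunit joining were all lower with ENZ and with Combination as deposited. EIF5, which triggers GTP hydrolysis by eIF2, fell by 0.25 with ENZ, 0.36 with EPZ and 0.53 with Combination (SE 0.074 each), and EIF5B, the GTPase of subunit joining, by 0.33, 0.22 and 1.00 (SE 0.059 each). For EIF5 with Combination the change was 0.039 after quantile normalization and -0.031 at equal totals, neither called, so its direction depends on the scaling. The ENZ call of EIF5 was lost under both (-0.054 and -0.075) and without the first ENZ library (-0.16) or either DMSO library (-0.26 and -0.24), and its EPZ call after quantile normalization (-0.18, adjusted p = 0.0806). The EPZ call of EIF5B was lost under both (-0.058 and -0.11) and without the first EPZ library (-0.21) or the second DMSO library (-0.19). EIF6, which keeps free large subunits from joining, stood at 63.4 and 53.2 FPKM with ENZ, 69.0 and 70.5 with EPZ and 42.3 and 42.1 with Combination, against 78.4 and 78.0 with DMSO. It fell by 0.42 with ENZ and by 0.88 with Combination (SE 0.075 each, adjusted p = 0.00112 and 2.23e-06), and its change with EPZ was -0.16 (adjusted p = 0.0937).
EIF5A, which carries the modified residue hypusine, stood at 120.3 and 113 FPKM with ENZ, 138 and 145 with EPZ and 46.3 and 47.4 with Combination, against 215 and 189 with DMSO. The groups did not overlap, with Combination lowest and DMSO highest. EIF5A fell by 0.78 with ENZ (SE 0.069, adjusted p = 1.63e-05), by 0.50 with EPZ (SE 0.069, adjusted p = 0.000230) and by 2.08 with Combination (SE 0.069, adjusted p = 2.92e-09), the second largest fall of any member as deposited. The near-identical copy EIF5AL1 was listed at 0.0956 to 0.514 FPKM and can share its reads, so the value of EIF5A is uncertain. EIF5A2, a paralogue at 1.23 to 2.60 FPKM, fell by 0.66 with Combination (SE 0.098, adjusted p = 0.000126) and by 0.31 with EPZ (SE 0.098, adjusted p = 0.0210), the EPZ call being lost at equal totals (-0.23) and without the first EPZ library (-0.26) or either DMSO library (-0.32 and -0.31).

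Among elongation factors, EEF1A2, the form of eEF1A known from muscle and neurons, was expressed above EEF1A1 in every library. EEF1A2 stood at 424 and 367 FPKM with ENZ, 324 and 321 with EPZ and 231 and 242 with Combination, against 414 and 395 with DMSO. EEF1A1 stood at 112 and 120.4 FPKM with ENZ, 109 and 120.1 with EPZ and 66.1 and 68.1 with Combination, against 111 and 115 with DMSO. Counts of EEF1A1 are uncertain because its many processed pseudogenes share its sequence.
With Combination both fell as deposited: EEF1A1 fell by 0.75 (SE 0.063, adjusted p = 1.99e-06) and EEF1A2 by 0.77 (SE 0.069, adjusted p = 2.90e-06). After quantile normalization these were -0.070 and 0.011, so the direction for EEF1A2 with Combination depends on the scaling. EEF1A2 also fell by 0.32 with EPZ (SE 0.069, adjusted p = 0.00305). EEF1A1 changed by 0.039 with ENZ and 0.012 with EPZ, and EEF1A2 by -0.035 with ENZ, none of which passed the test as deposited (adjusted p = 0.620, 0.884 and 0.681). EEF1A1 was called higher with ENZ after quantile normalization (0.32) and at equal totals (0.22), and with EPZ after quantile normalization (0.18). EEF1A2 with ENZ was called higher after quantile normalization (0.29) and not at equal totals (0.14). Its direction with ENZ therefore depends on the scaling too. The deposited signs of EEF1A1 with ENZ and EPZ and of EEF1A2 with ENZ also turned when single libraries were left out.
The exchange complex that reloads eEF1A fell in all of its parts with Combination, under every scaling. EEF1B2, its nucleotide exchange subunit, stood at 74.3 and 75.1 FPKM with ENZ, 64.3 and 66.3 with EPZ and 27.8 and 30.2 with Combination, against 90.0 and 90.2 with DMSO. The groups did not overlap, and its changes were -0.27 with ENZ (SE 0.056, adjusted p = 0.00286), -0.46 with EPZ (SE 0.056, adjusted p = 0.000121) and -1.61 with Combination (SE 0.056, adjusted p = 4.28e-09). The ENZ call was lost after quantile normalization (-0.021) and at equal totals (-0.091). EEF1D and EEF1G, the other subunits, fell by 0.94 and 0.89 with Combination, and EEF1E1, a part of the multi-synthetase complex, by 1.32. Nearly all exonic bases of EEF1G (99.9%) lie in a readthrough gene on the same strand, which can share its reads.

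EEF2, the translocase, was the row with the highest FPKM of the whole table in both DMSO libraries. It stood at 1767 and 1596 FPKM with ENZ, 1834 and 1821 with EPZ and 1048 and 1082 with Combination, against 2146 and 2084 with DMSO. All treated libraries were under both DMSO libraries, and EEF2 fell by 0.33 with ENZ (SE 0.056, adjusted p = 0.000814), by 0.21 with EPZ (SE 0.056, adjusted p = 0.0102) and by 0.99 with Combination (SE 0.056, adjusted p = 1.06e-07). The EPZ call was lost at equal totals (-0.097, adjusted p = 0.0696) or without the first DMSO library (-0.19). After quantile normalization the ENZ call was lost (-0.23, adjusted p = 0.118), and the change was -0.46 both with EPZ and with Combination. That normalization gives each rank a single value, and EEF2 ranked 1 or 2 in every library. Its values there follow from rank alone and do not measure the size of its change.
EEF2K, the kinase that inactivates eEF2, was the only member called lower with ENZ and higher with EPZ. It stood at 8.72 and 9.17 FPKM with ENZ, 13.7 and 13.5 with EPZ and 10.7 and 11.9 with Combination, against 10.6 and 11.2 with DMSO. It fell by 0.26 with ENZ (SE 0.069, adjusted p = 0.00980), a call lost without the second DMSO library (-0.23, adjusted p = 0.0722) and at equal totals (-0.098), and rose by 0.29 with EPZ (SE 0.069, adjusted p = 0.00543). Combination and DMSO libraries overlapped, at a change of 0.044 (adjusted p = 0.571) that was called higher under each rescaling (0.21 to 0.52). EEF2KMT, which methylates eEF2, fell by 0.60 with ENZ, 0.70 with EPZ and 1.42 with Combination (SE 0.11 each).

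Combination was next set against each single agent. Against ENZ, 48 members were lower and 4 higher (median -0.66), beside 45.5% lower, 25.3% higher (70.8% in either direction) and a median of -0.15 over all tested genes. Against EPZ, 47 were lower and 4 higher (median -0.71), beside 43.7% lower, 29.2% higher (72.8% in either direction) and a median of -0.11. Among the 1145 highly expressed genes 74.1% were lower against ENZ and 79.5% against EPZ, with medians of -0.57 and -0.71, where the 27 members at that level had -0.74 and -0.78. In all, 44 members were lower than with each single agent, a count not set beside one for all tested genes. EIF4EBP1 fell the furthest in both, by 1.82 against ENZ (SE 0.055) and by 2.05 against EPZ (SE 0.055), followed by EEF1B2 against ENZ (-1.34, SE 0.056) and EIF5A against EPZ (-1.58, SE 0.069).
The 4 higher than with ENZ were EIF1B (0.36), EEF2K (0.30), EIF2AK3 (0.29) and EIF4A2 (0.14). The last 2 calls were lost when the second ENZ library (EIF4A2, 0.13), the first ENZ library (EIF2AK3, 0.15) or either Combination library (EIF4A2, 0.12 and 0.15; EIF2AK3, 0.36 and 0.23) was left out. The 4 higher than with EPZ were EIF1B (0.88), EIF4E3 (0.56), EIF4ENIF1 (0.25) and EIF4G3 (0.18), of which EIF4ENIF1 was lost without the first EPZ library (0.18) or the second Combination library (0.22) and EIF4G3 without the second EPZ library (0.13) or either Combination library (0.19 and 0.16).

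The interaction asks whether the change with Combination differs from the sum of the changes with ENZ and with EPZ on the log2 scale. It was negative and past the threshold for 34 of the 58 members and positive for 1, with a median of -0.41, beside 29.6% negative, 9.99% positive (39.6% in either direction) and a median of -0.12 over all tested genes. Of the highly expressed genes 66.9% were negative with a median of -0.41, and of the 27 members at that level 24 were negative, with a median of -0.53. All 12 eIF3 subunits were among the negative ones as deposited, with 5 of 6 eEF1 members and 1 of 5 eIF2B subunits. Under every scaling the interaction was negative for 21 members, among them 9 eIF3 subunits, 2 eEF1 members and 0 eIF2B subunits, and EIF3F, EIF3G and EIF3H were the eIF3 subunits that lost the call. Of the 32 members lower with both single agents, 22 had a negative interaction, again with no such count for all tested genes.
EIF4EBP1 averaged 19.1 ± 0.053 FPKM (SD, n = 2) with Combination, where the sum of the single-agent changes gave 41.8, an interaction of -1.09 (SE 0.078, limma adjusted p = 8.87e-06). EEF1A1 averaged 67.1 ± 1.42 FPKM with Combination against a predicted 117, an interaction of -0.80 (SE 0.090, limma adjusted p = 0.000127), with neither single-agent change past the threshold. EIF4A2 averaged 135 ± 2.14 FPKM against a predicted 172, an interaction of -0.35 (SE 0.070, limma adjusted p = 0.00369), which was not called after quantile normalization or at equal totals (-0.067 and -0.12). EIF1B was the single member called above its prediction as deposited, at 34.3 ± 1.23 FPKM against a predicted 21.5, an interaction of 0.65 (SE 0.098, limma adjusted p = 0.000694).

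**Figure D5:**
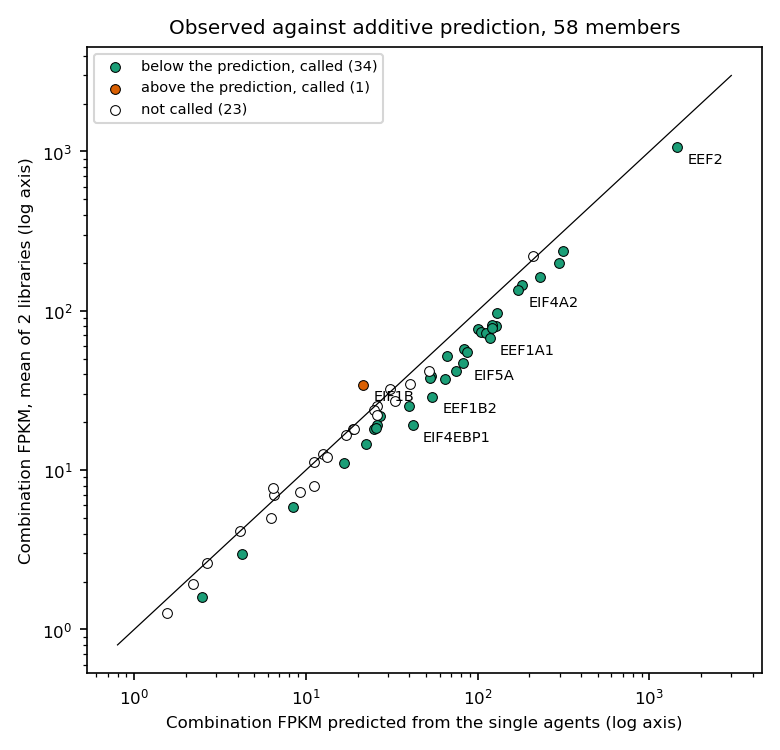
Mean FPKM of each tested member with Combination (y axis, 2 libraries) against the FPKM predicted from the sum of the single-agent log2 changes (x axis), both on log axes; the line marks equality. The 34 members with a negative interaction lie under the line and EIF1B lies above it, at 34.3 against 21.5.

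The promoter windows were set beside these changes. A C at an annotated start followed by at least 4 pyrimidines was found in 12 of the 47 tested members with a promoter (25.5%), in 7.51% of the 8787 tested genes with one and in 5.14% of all 27305 genes of the RefSeq table. A gene with several annotated starts was counted if any of them had the run. With Combination, 11 of the 12 were lower and EIF4A2 was higher, with a median of -1.05. Of the 35 without the run, 27 were lower and 4 higher (median -0.65). Tested members with no promoter sequence stand in neither set. They were EEF1A2, EEF1D, EEF2KMT, EIF2AK1, EIF2S2, EIF3A, EIF3E, EIF3G, EIF3H, EIF3L and EIF4EBP1, all called lower with Combination as deposited. Over all tested genes 57.9% of the 660 with the run were lower (median -0.35) and 48.6% of the 8127 without it (median -0.16). The interaction was negative for 11 of the 12 with the run and for 14 of the 35 without, beside 40.5% and 29.7% over all tested genes. With ENZ alone the medians were -0.36 and -0.27, and with EPZ alone -0.22 and -0.29. Of the members with the run, only EIF2A and EIF2D averaged under 50 FPKM (30.9 and 21.6). Among all tested members, those at or above 50 FPKM had a median of -1.02 with Combination and those under it -0.63. Their interaction was negative for 24 of 27 and for 10 of 31. The part of expression level in the contrast by run was not tested.
The E-box CACGTG, the letters that MYC and related factors bind and which reads the same on both strands, was searched from 250 bases before to 30 bases after the start. It was found in 13 of the 47 members (27.7%), 12.8% of the tested genes and 8.42% of all genes. Members with it had a median of -0.97 with Combination and those without -0.71, beside -0.24 and -0.17 over all tested genes. Called lower with Combination were 9 of the 13 with it and 29 of the 34 without, beside 52.8% and 48.8% over all tested genes. The members' medians were -0.24 and -0.33 with ENZ, -0.29 and -0.23 with EPZ, and -0.33 and -0.33 for the interaction. Neither match is a measured site, and the members with the run have no E-box except EIF3F, EIF3K and EIF4B.

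Other genes of translation control were read from the same fit, in lists drawn up with earlier results of these data known. Their counts stand beside the shares of all tested genes, which were 28.8% lower and 27.9% higher with ENZ, 32.4% and 23.4% with EPZ and 47.4% and 33.3% with Combination, and for short lists nothing is read from the difference. Of 16 genes of the mTORC1 and MNK list, 8 were lower and 4 higher with ENZ, 4 and 3 with EPZ, and 8 and 7 with Combination. DEPTOR, an inhibitor of mTORC1, averaged 14.2 FPKM with ENZ, 4.33 with EPZ and 21.6 with Combination, against 4.23 with DMSO, and rose by 1.53 with ENZ (SE 0.080) and by 2.11 with Combination (SE 0.080). MTOR, the kinase, fell by 0.61 with ENZ (SE 0.067) and by 0.88 with Combination (SE 0.067), and its partner MLST8 by 0.54, 0.44 and 1.35 in the 3 groups (SE 0.063 each). DDIT4, a stress-induced inhibitor of mTORC1, averaged 29.1 FPKM with ENZ, 66.7 with EPZ and 34.2 with Combination, against 34.0 with DMSO, and rose by 0.95 with EPZ and fell by 0.21 with ENZ (SE 0.070 each).
Of 11 genes of the integrated stress response, which eIF2 phosphorylation sets off, 5 were lower and 2 higher with ENZ, 4 and 5 with EPZ, and 5 and 4 with Combination. TRIB3, a stress-induced pseudokinase, fell by 0.80, 0.97 and 1.51 (SE 0.063 each) and ATF5, a transcription factor, by 0.45, 0.46 and 1.59 (SE 0.072 each), while PPP1R15A, the phosphatase subunit that reverses eIF2 phosphorylation, rose by 0.69 with ENZ, 0.64 with EPZ and 1.30 with Combination (SE 0.089 each). DNAJC3, an inhibitor of PERK, averaged 13.8 FPKM with ENZ, 25.8 with EPZ and 13.2 with Combination, against 14.0 with DMSO, and rose by 0.84 with EPZ (SE 0.075).
Of 8 termination and recycling genes, 6 were lower with ENZ, 5 with EPZ and 6 with Combination, and 0, 0 and 1 higher. ABCE1, which splits terminated ribosomes, fell to 9.08 FPKM with Combination, against 36.8 with DMSO (-1.91, SE 0.073). Of 10 poly(A)-binding and scanning helpers, 5, 5 and 7 were lower and 2, 2 and 1 higher. PDCD4, an inhibitor of the eIF4A helicase, rose in all 3 groups, by 0.60 with ENZ, 0.97 with EPZ and 0.90 with Combination (SE 0.077 each), and PABPC4, a poly(A)-binding protein, fell by 0.45, 0.42 and 1.54 (SE 0.057 each). LARP1, which binds the pyrimidine tract, fell by 0.20, 0.20 and 0.78 (SE 0.054 each).
Both enzymes that make hypusine on eIF5A were lower with ENZ and with Combination. DOHH fell by 0.78 with ENZ, 0.46 with EPZ and 1.16 with Combination (SE 0.088 each), and DHPS by 0.32 with ENZ and 0.69 with Combination (SE 0.077 each). Of 9 mitochondrial translation factors 6 were lower with ENZ, 4 with EPZ and 7 with Combination, none higher, with TSFM at -1.29 (SE 0.057) and TUFM at -1.05 (SE 0.057) with Combination. Of 4 selenocysteine elongation genes 2 were higher with ENZ, 1 lower with EPZ and 1, SEPSECS, higher with Combination (0.62).
Some members gave no comparison. EIF4A1, EIF3C, EIF3CL and the readthrough EEF1E1-BLOC1S5 were listed at 0 in every library, which can be a failed estimate, and EIF5AL1 and EIF4E1B (0 to 0.0328 FPKM) were under 1 FPKM. At least 20% of exonic bases lay in other genes of the same or the opposite strand in 9 members. Beside EEF1G, EIF4A1, EIF4EBP3 and EEF1E1-BLOC1S5, these were EIF3L (41.1%, same strand) and 4 on the opposite strand. The 4 were EEF1D (34.0%), EEF2KMT (29.25%), EIF4E2 (24.2%) and EIF2B2 (23.6%), and such genes can share reads.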

How the data were processed

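RNA-seq libraries were made from total RNA of C4-2B cells, per the labels' protocols, 2 for each of 4 groups. The values are FPKM, which the authors deposited as a single table. Per the submitters' processing notes, STAR and hg38 were used, with no version stated. How fragments were counted, on which gene models and with which strandedness are points not given in the sources used here. Of 26475 rows 26443 hold values, and 28 gene symbols in them read as dates and are named nowhere. Groups come from the sample titles, and columns were matched by the sample names in the labels.

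The deposited FPKM entered the fit as log2(FPKM + 1), a pseudocount of 1 that understates the change of low genes. The fit took the 11874 genes whose mean was 1 FPKM or more. In limma 3.58.1 (R 4.3.3) a model of the 4 groups used all 8 libraries, with a two-sided moderated test and a variance trend on expression. The p-values were adjusted by Benjamini-Hochberg over all tested genes in each of 6 comparisons, at 0.05. The fit was tested on simulated data. Other steps used numpy 2.4.6, pandas 2.3.3 and matplotlib 3.10.9 under Python 3.11.15. Exonic overlaps come from GENCODE annotation.

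FPKM hold no totals, so depth was estimated from the steps between low values: 89.5% to 94.5% of 801 to 1314 low genes per library stood in whole ratios to the first DMSO library within 0.04%, but only 40.7% of 486 single-transcript genes lay on the step, so no counts were recovered. In a gene of 1 kilobase 1 fragment was worth 0.0405 to 0.0641 FPKM.

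The members and lists were chosen with earlier results of these data known. Members named are the 8 highest and 8 lowest changes past the threshold whose treated values lie outside the control values (5 and 5 between treated groups, 10 for the interaction), the paralogues, kinases and subunits of eIF2, eIF4, eIF5A, eEF1A and eEF2, and up to 4 genes of each other list by p. EEF1D, EEF1G, EIF1, EIF1AD, EIF1AX, EIF2A, EIF2B1, EIF2B2, EIF2B4, EIF2B5, EIF2D, EIF3A, EIF3E, EIF3F, EIF3G, EIF3H, EIF4H, EIF5 and EIF5B were named beyond that rule after their values were seen, to complete their role. The alternatives were quantile normalization, median-of-ratios scaling, equal totals, a pseudocount of 0.1, a filter at 5 FPKM or none, a fit of the compared groups alone, the replicate number as a block, and each library left out in turn.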

Additional observations from a re-analysis of the deposited data

Results flagged for a closer look

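The effect of ENZ differed with and without EPZ, by the interaction test of limma, for 34 members in the negative direction and for EIF1B in the positive one. The 10 with the smallest adjusted p were all negative, with less RNA under Combination than the single-agent changes add up to. The values are log2 differences with n = 2 libraries a group. The difference was -1.09 for EIF4EBP1, -0.88 for EEF1B2, -0.80 for EEF1A1 and -0.80 for EIF5A. Among eIF3 subunits it was -0.82 for EIF3M, -0.68 for EIF3I, -0.64 for EIF3B, -0.62 for EIF3D and -0.57 for EIF3L, and for EIF4B it was -0.78. EEF1B2, for example, averaged 28.96 FPKM with Combination, where the single-agent changes predict 54.1.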

How the results depend on the processing

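With 2 libraries a group the spread is shared over all groups, and a library left out alone in its group is assumed to vary like the others. Scaling was the choice that moved most counts, and the cause was not tested. Members lower with ENZ numbered 24 after quantile normalization and 24 at equal totals. With EPZ they numbered 23 and 23, and 6 were higher after quantile normalization. With Combination 9 were higher after quantile normalization and 10 at equal totals. Against ENZ, Combination had 9 higher at equal totals, and against EPZ 9 after quantile normalization and 11 at equal totals. The interaction was positive for 2 members with median-of-ratios scaling, 3 after quantile normalization and 4 at equal totals. Of the 49 members lower with Combination, 47, 40 and 39 stayed lower under these scalings (in the order median-of-ratios, quantile, equal totals), and 0, 3 and 1 were called higher. Leaving out 1 library gave 3 to 7 members higher and 33 to 42 lower with ENZ, 26 to 36 lower with EPZ, 3 to 5 higher and 47 to 49 lower with Combination, 2 to 3 higher against ENZ and 2 to 3 against EPZ, and 29 to 37 with a negative interaction.

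Of the tested members, these turned direction against DMSO. After quantile normalization they were EEF1A2 (0.29), EEF1G (0.017), EIF2AK3 (-0.024), EIF3E (0.043), EIF3F (0.15), EIF3L (0.088), EIF4ENIF1 (-0.026) and EIF4G2 (0.11) with ENZ, EIF1 (0.040), EIF2B2 (0.074), EIF2B5 (0.090), EIF3F (0.13) and EIF3H (0.027) with EPZ, and EEF1A2 (0.011), EIF2AK1 (0.42), EIF2AK2 (0.0084), EIF3F (0.20), EIF4ENIF1 (0.0046), EIF4G2 (0.24) and EIF5 (0.039) with Combination. At equal totals they were EEF1A2 (0.14), EIF1AD (0.036), EIF3F (0.094), EIF3L (0.0088) and EIF4EBP3 (0.027) with ENZ, EIF1 (0.043), EIF2AK2 (0.066), EIF2B2 (0.036), EIF2B5 (0.047), EIF3D (0.0076), EIF3F (0.081) and EIF3H (0.060) with EPZ, and EIF1AD (0.16), EIF2AK1 (0.34), EIF2AK2 (0.41), EIF2B5 (0.021), EIF3F (0.068), EIF4EBP2 (0.070), EIF4EBP3 (0.39) and EIF4ENIF1 (0.38) with Combination. With median-of-ratios scaling they were EIF2AK2 (0.015), EIF3F (0.024) and EIF3H (0.0023) with EPZ, and EIF2AK1 (0.0056), EIF2AK2 (0.11), EIF4EBP3 (0.12) and EIF4ENIF1 (0.081) with Combination. With 1 library left out, EEF1A1 ran over -0.010 to 0.088, EEF1A2 over -0.14 to 0.068, EIF2AK3 over -0.070 to 0.21, EIF4EBP3 over -0.24 to 0.011 and EIF4ENIF1 over -0.013 to 0.074 with ENZ. With EPZ, EEF1A1 ran over -0.061 to 0.085, EIF2AK2 over -0.093 to 0.026, EIF3F over -0.090 to 0.029, EIF4EBP3 over -0.036 to 0.22 and EIF4G3 over -0.011 to 0.075. With Combination, EEF2K ran over -0.025 to 0.11 and EIF4EBP3 over -0.15 to 0.10.

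The replicate number shares only a number between groups (correlations of -0.015 to 0.11). With it as a block, 42 members were lower and 7 higher with ENZ, 39 and 3 with EPZ and 49 and 5 with Combination, and the interaction was negative for 38. Of the named values, EIF4EBP2 with ENZ alone changed its call.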
